A study of Mus musculus with 10 samples.

Results

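The genes described here encode the proteins of the cytosolic ribosome. A gene was taken as a member when a probe set carried 1 gene symbol and that symbol was Rpl or Rps with a number and optional letters, Rplp0 to Rplp2, or Rpsa. The Rps6k kinases, Rpl7l1, other -like genes and pseudogenes were left out. This gave 42 of the 18193 genes measured, 22 of the large subunit and 20 of the small subunit. The large-subunit members were Rpl4, Rpl6, Rpl7, Rpl7a, Rpl8, Rpl10a, Rpl11, Rpl12, Rpl13a, Rpl14, Rpl19, Rpl22, Rpl27, Rpl27a, Rpl35, Rpl37, Rpl37a, Rpl38, Rpl39, Rpl41, Rplp0 and Rplp2. The small-subunit members were Rps2, Rps3, Rps4x, Rps6, Rps7, Rps9, Rps10, Rps14, Rps15, Rps16, Rps18, Rps19, Rps20, Rps24, Rps25, Rps26, Rps27, Rps28, Rps29 and Rpsa. Of 78 protein-coding mouse symbols in RefSeq that meet the same pattern, 36 were not members, because no probe set carried them as its single symbol. A further 110 probe sets carried several symbols of which 1 or more was a ribosomal protein, and they are described only as a group.

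Expression was measured with 1 Affymetrix array for each of 10 mice, 5 in each group. The cells were the NSTY acute lymphoblastic leukaemia, a C57BL/6 line with human p210 bcr/abl and a deletion of Ink4a/Arf, and both groups carried these same alleles. C57BL/6 recipients were conditioned with total body irradiation and 5-fluorouracil and received the leukaemia together with marrow and spleen cells, from C57BL/6 donors in the syngeneic group and from C3.SW donors in the allogeneic group. The leukaemia was recovered by flow cytometry after 2 to 3 weeks, moved to freshly transplanted mice through 3 serial transplants, sorted on GFP and placed in Trizol. The sources used here do not give the ages of the mice, nor whether mice of a group shared leukaemia from 1 earlier recipient, so p-values measure the spread between these samples. The study asked how leukaemia that grew beside an allogeneic graft differed from leukaemia that grew beside a syngeneic one. Because each array read the RNA of many cells, fewer cells of a type and less RNA per cell cannot be told apart.

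Ribosomal proteins assemble with ribosomal RNA into the small subunit, which reads the messenger RNA, and the large subunit, which joins amino acids and passes the new chain out through a tunnel. Their messenger RNAs are abundant in dividing cells and usually begin with a run of pyrimidines after a cytosine, the 5′ terminal oligopyrimidine (TOP) tract. Through this tract the mTOR kinase, with the binding protein Larp1, sets how well they are translated, so the amount of these messengers and the amount of protein made from them can differ. Free ribosomal proteins also have roles outside the ribosome, among them the binding of Mdm2 by Rpl11, which raises p53.

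Start-site sequences were taken from RefSeq (GRCm38.p6) for the 37 members listed in its promoter table. The 7 windows below belong to the genes whose values the results turn on. Each holds 10 bases before the annotated start and 20 from it, 5′ to 3′ on the gene's strand. Capitals mark the pyrimidine tract, counted from its first C within 5 bases of the start. Pyrimidines before that C, as in Rpl14 and Rps9, stay in small letters. The windows lie at chr4:86857348-86857377 (minus strand, Rps6), chr9:120571507-120571536 (plus, Rpl14), chr7:109519185-109519214 (plus, Rpl27a), chr9:120127756-120127785 (plus, Rpsa), chr17:33955646-33955675 (minus, Rps18), chr17:27635225-27635254 (minus, Rps10) and chr7:3704031-3704060 (plus, Rps9).
Rps6: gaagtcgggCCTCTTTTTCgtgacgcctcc
Rpl14: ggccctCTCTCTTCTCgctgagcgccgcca
Rpl27a: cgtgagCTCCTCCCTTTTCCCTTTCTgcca
Rpsa: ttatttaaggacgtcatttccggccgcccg
Rps18: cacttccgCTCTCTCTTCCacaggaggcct
Rps10: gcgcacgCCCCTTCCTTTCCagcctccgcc
Rps9: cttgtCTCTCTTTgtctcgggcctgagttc

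A tract was defined as C followed by at least 4 pyrimidines, with that C within 5 bases of the annotated start. It was present in 18 of the 37 members (48.6%) and in 18.7% of 17492 protein-coding promoters. Rps6, Rpl14, Rpl27a, Rps18, Rps10 and Rps9 had one, and the Rpsa window held none that met the definition. Starts used in these cells were not examined, so a window without a tract does not show that the messenger lacks one. In the promoter sequence from 250 bases before to 50 after the start, searched on both strands, the ETS factor (GABP) motif CCGGAAG was found in 18 members (48.6%) against 11.9% of all promoters. The SP1 motif GGGCGG was found in 20 members (54.1%), against 46.3% of all promoters. The YY1 motif ATGGCGG, whose first letters can coincide with a start codon, was found in 5 (13.5%) against 5.41%, and the TATA motif TATAAA in 4 (10.8%) against 13.3%. For the motifs of interferon-activated factors, TTCNNNGAA (GAS) was found in 3 members (8.11%) against 7.83%, and GAAA followed after any 2 bases by GAAA (ISRE) in 5 (13.5%) against 3.40%. On the opposite strand the ISRE letters read TTTC, any 2 bases and TTTC, which a pyrimidine tract can supply, as in the Rpl27a window. Of the other members with an ISRE match, Rpl38 had a tract without these letters, and Rpl4, Rps7 and Rps19 had no tract by the definition. A match describes these letters and shows no bound factor.

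The values are log2 intensities after quantile normalization, and the probe set with the highest mean of all 10 arrays stands for its gene. A background limit for each array, the 95th percentile of 27 bacterial control probe sets, lay between 4.50 and 5.32. Between 11224 and 13094 genes per array exceeded it. For Gapdh, the control probe sets at the 3′ end over those at the 5′ end gave 1.46 to 1.56 in syngeneic and 1.38 to 1.59 in allogeneic mice. Before normalization the lower quartile of intensity was 18.7 to 19.5 on the arrays of allogeneic mice 1, 3 and 4 and 13.8 to 14.4 on the other 7. Results per gene are therefore also given without those arrays where they differ. Single probe sets were fitted with each array left out in turn, and not without those arrays together. Precision is limited by the number of arrays. The label of a B-lineage acute leukaemia was checked against 12 fixed B-lymphoid progenitor markers. Of the 11 measured, 10 were above background on every array, among them Vpreb1 (13.64 and 13.68), with Pax5 the exception at 5.58 and 4.37.

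None of the 42 ribosomal protein genes passed limma's test at a Benjamini-Hochberg adjusted p under 0.05, where 0.583% of all genes did (0.506% higher and 0.077% lower in the allogeneic group). At an unadjusted limma p under 0.05 there were 2 members, Rps6 and Rpl14, against 16.9% of all genes. Most members (34 of 42) had a mean log2 intensity of 13 or more. Of the 308 other genes at that level, 12 had such a limma p. By a 2-sided exact permutation test over 252 splits, whose smallest possible p is 0.00794, the count was 3 (Rps6, Rpl14 and Rps19), again against 16.9% of all genes. Of those 308 genes, 71 had an exact permutation p under 0.05. In 0 members did the 2 groups fail to overlap, against 4.83% of all genes and 24 of those 308. The members' differences, allogeneic minus syngeneic, were positive for 20 and negative for 22, with a median of -0.0019 on the log2 scale beside 0.0107 over all genes. The median was -0.049 on the deposited scale without normalization and -0.083 with each array centred on its median. Its size without regard to sign had a median of 0.0205, beside 0.248 over all genes. The large-subunit median was -0.0026 (9 positive, 13 negative) and the small-subunit median was 0.0062 (11 positive, 9 negative).

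In the deposited linear intensities, before normalization, the summed signal of the 42 representing probe sets was taken as a share of all array signal. This share differed between groups by less than the spread between mice. Such a sum weighs probe sets by intensity, so the 34 members with a mean log2 intensity of 13 or more hold most of it. Whether a change at the top of the intensity scale would show in it was not tested. These probe sets are 0.0933% of all non-control probe sets. They held 1.54% ± 0.038 (SD, n = 5) of the summed intensity in the syngeneic group, with a range of 1.51% to 1.61%. In the allogeneic group they held 1.54% ± 0.014 (SD, n = 5), with a range of 1.52% to 1.56%.

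**Figure D1:**
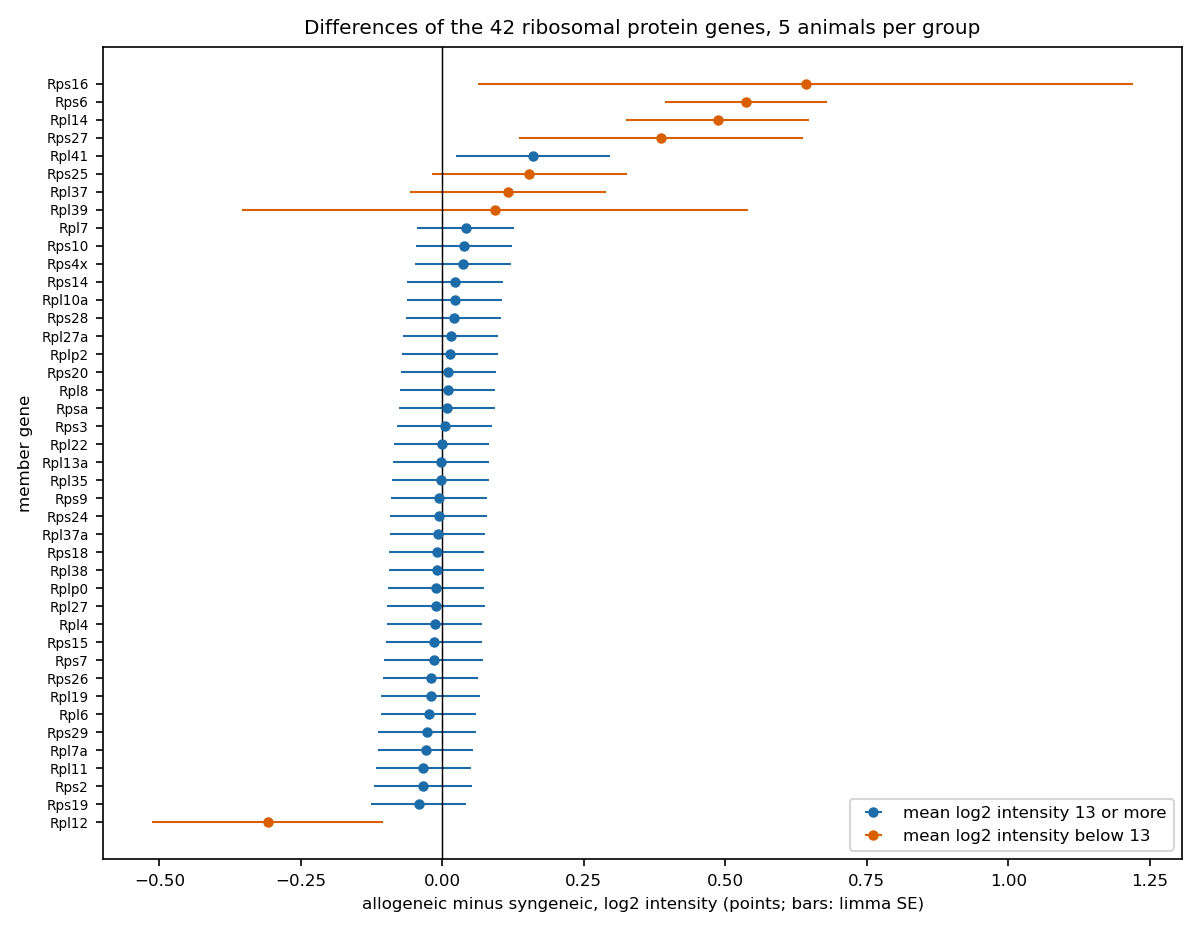
Difference between groups for each of the 42 ribosomal protein genes, in log2 intensity (allogeneic minus syngeneic, horizontal axis), with limma's SE as bars and 5 mice per group. The 34 genes with a mean of 13 or more lie between -0.042 and 0.16, and the genes away from 0 are mainly among the 8 below 13, from Rpl12 at -0.31 to Rps6 at 0.54, with the Rps16 point from a probe set above background on 0 arrays.

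The members fell into a bright class and a small remainder. In 34 of 42, the representing probe set had a mean log2 intensity of 13 or more, from 13.44 to 14.18, which placed it within the top 0.654% of all probe sets. The highest value on any array was 14.33 to 14.45. The limit of 13 was chosen after the values had been seen. Rpl41, at 13.44, was the nearest member above it and Rps25, at 11.98, the nearest below. Intensity depends on the probes, so these positions describe probe sets and not the relative abundance of the messengers.

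Bright members differed little between mice and little between groups. Their differences ran from -0.042 to 0.16, with a median of -0.0065 and a median size of 0.0146, and 13 were positive and 21 negative. The within-group SD had a median of 0.0281 (0.0105 to 0.191). Adjusted p-values from limma were 0.585 to 0.995, and the 95% intervals together spanned -0.23 to 0.46. The limma SE of these genes was 0.083 to 0.137, while the SE from their own spread had a median of 0.0178, because limma's moderation draws every gene's variance toward that of all genes. The 308 other genes as bright had a median within-group SD of 0.0740 and a median difference in size of 0.0601, and 1 of them passed the test, the interferon-induced Ifi27l2a at 0.67 (limma SE 0.12, adjusted p 0.0439), named here after its value was seen. Both median SDs were below the 0.379 of all genes, and what sets the narrow spread at the top of the scale was not tested.

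**Figure D2:**
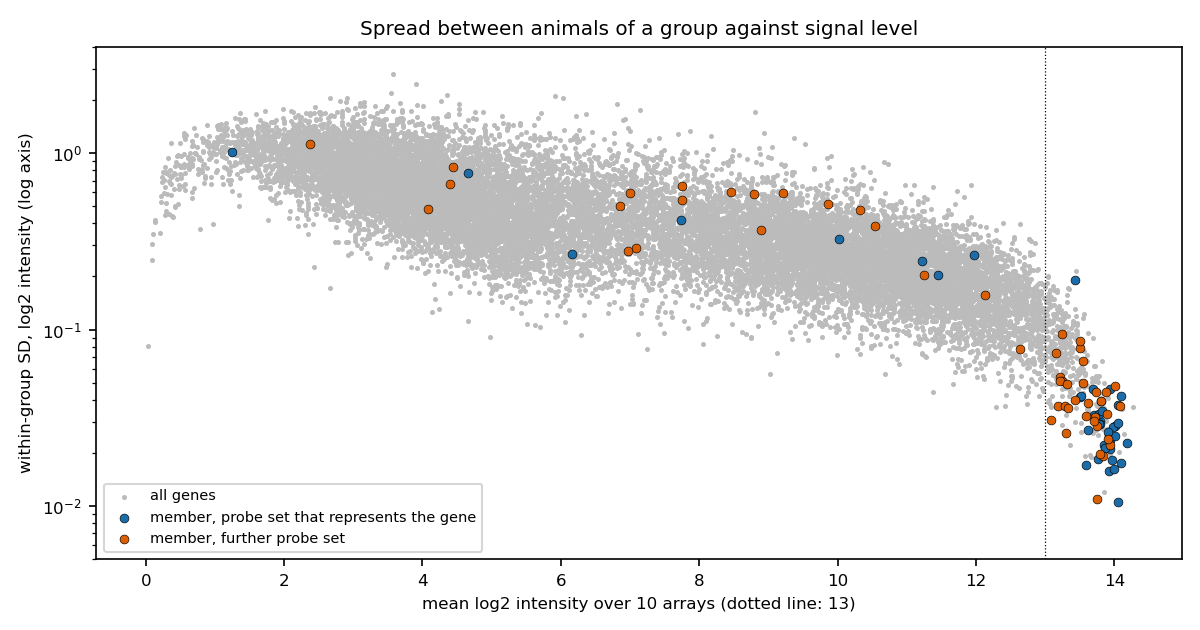
Within-group SD (log2 intensity, log axis) against mean log2 intensity for all genes (grey) and for the probe sets of ribosomal protein genes (blue, representing; orange, further ones), with a dotted line at 13. The SD narrows toward the bright end, and the 34 bright members lie between 0.0105 and 0.191 there.

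The P stalk, which draws elongation factors to the large subunit, was represented by 3 of 4 listed genes, and 0 passed the limma test. Rplp0, the scaffold of the stalk, differed by -0.01, and Rplp2, an acidic stalk protein, by 0.01. Rpl12, which sits at the base of the stalk, was one of the members below 13. Its log2 values were 10.56, 10.16, 10.19, 9.74 and 10.24 in syngeneic mice 1 to 5 and 9.77, 10.07, 9.30, 9.998 and 10.22 in allogeneic mice 1 to 5. The groups overlapped, with allogeneic 3 the lowest and syngeneic 1 the highest. The difference was -0.31 (limma SE 0.20, adjusted p 0.468), without allogeneic 3 it was -0.17, and without allogeneic mice 1, 3 and 4 it was -0.036.

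Proteins that line the polypeptide exit tunnel or surround its mouth were represented by 4 of 8 listed genes, of which 0 passed. Rpl4, which reaches into the tunnel wall, had the smallest within-group SD of the members (0.0105) and differed by -0.01. Rpl35 differed by -0.0029 and Rpl19 by -0.02. Rpl39, an X-linked tunnel protein, was near background, exceeding the limit on 1 syngeneic and 3 allogeneic arrays. Its values were 5.41, 3.46, 4.30, 5.28 and 4.62 in syngeneic and 5.17, 3.81, 4.86, 5.62 and 4.06 in allogeneic mice. The ranges overlapped widely, with a difference of 0.09 (limma SE 0.45, adjusted p 0.942). It had no settled sign, at -0.19 without syngeneic 2, 0.32 without allogeneic 2 and -0.67 without allogeneic mice 1, 3 and 4.

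Small-subunit proteins along the messenger RNA channel were represented by 5 of 6 listed genes, with 0 passing. Rps2 and Rps3 lie at the entry of the channel and differed by -0.03 and 0.0039. Rps14, Rps26 and Rps28 lie at its exit and differed by 0.02, -0.02 and 0.02. Rps3, Rps10 and Rps20, which carry regulatory ubiquitin when ribosomes stall and collide, differed by 0.0039, 0.04 and 0.01. X-linked Rps4x differed by 0.04.

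Members known from disease also differed little in their representing probe sets, apart from Rps27, described further on. Of 19 listed genes mutated in Diamond-Blackfan anaemia, an inherited failure of red cell production, 12 were measured and 0 passed, with 4 positive and 8 negative differences and a median of -0.01. They included Rps7, Rps24, Rps29 and Rpl27, at -0.02, -0.0067, -0.03 and -0.01. Rps19, the gene most often mutated in that disease, was at 13.94, 13.95, 13.88, 13.97 and 13.93 in syngeneic and 13.92, 13.87, 13.88, 13.89 and 13.89 in allogeneic mice. Syngeneic 3 lay among the allogeneic values. The difference was -0.04 (limma SE 0.085, adjusted p 0.841; 2-sided exact permutation p 0.0476 before adjustment). Rpl11, Rpl22 and Rps15, which are mutated in human lymphoid leukaemias, differed by -0.03, -0.0016 and -0.01, with limma adjusted p-values of 0.876 or more. Dimmer probe sets differed more for Rps10 (1436384_at, -1.06), Rps24 (1455195_at, -0.60) and Rpl35 (1454833_at, -0.51). Their limma adjusted p-values were 0.158, 0.413 and 0.488. The dimmer probe sets of Rps20 differed by -0.11 each, and that of Rpl22 (1448398_s_at) by 0.17.

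Rpl13a, Rpl6 and Rpl7a add further examples of the bright class. Rpl13a, which can leave the ribosome to join the interferon-induced GAIT complex that silences inflammatory messengers, was at 14.02, 13.99, 13.98, 14.04 and 14.00 in syngeneic mice. In allogeneic mice it was at 13.99, 13.99, 13.99, 13.99 and 14.06. Allogeneic 5 lay above every syngeneic value and the other 4 within the syngeneic range, and the group means differed by -0.0023. Rpl6 differed by -0.02 and Rpl7a by -0.03. Rpl41, the smallest ribosomal protein, had the largest difference among bright members, 0.16 (limma SE 0.14, adjusted p 0.585). It was at 13.33, 13.35, 13.35, 13.43 and 13.33 in syngeneic and 13.31, 13.42, 13.39, 13.98 and 13.49 in allogeneic mice. Allogeneic 4 stood apart from the other 9 values, and without it the difference was 0.04. The mean of the gene's probe sets differed by -0.07, and the probe set 1433530_at by -0.49.

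The 8 members below 13 held the larger differences. Rps6 encodes the small-subunit protein phosphorylated by the S6 kinases downstream of mTOR. Its log2 values were 11.09, 11.05, 11.46, 11.24 and 11.04 in syngeneic mice 1 to 5 and 11.39, 11.92, 11.56, 11.87 and 11.82 in allogeneic mice 1 to 5. Syngeneic 3 exceeded allogeneic 1, and the other values did not cross. The difference was 0.54 (limma SE 0.14, adjusted p 0.129; 2-sided exact permutation p 0.0159 before adjustment). Leaving out allogeneic 1 gave 0.62 (limma adjusted p 0.0422), and Rps6 passed in no other fit that left out 1 mouse. That omission also gave the most calls over all genes of any single mouse. Averaging the gene's 2 probe sets gave 0.11, and the second of them (1453466_at, mean 4.40) exceeded background on 3 of 10 arrays.

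Rpl14, a large-subunit protein on the solvent side, had a like pattern. It was at 10.79, 10.88, 11.09, 11.13 and 10.95 in syngeneic and 11.14, 11.70, 11.11, 11.81 and 11.53 in allogeneic mice. Allogeneic 1 and 3 lay beside the top of the syngeneic range, and allogeneic 2, 4 and 5 lay well above it. The difference was 0.49 (limma SE 0.16, adjusted p 0.186; 2-sided exact permutation p 0.0159 before adjustment). Rps27, a zinc-binding small-subunit protein, was at 7.48, 7.44, 7.54, 7.69 and 7.60 in syngeneic and 7.54, 8.09, 7.14, 8.49 and 8.42 in allogeneic mice. The same 3 allogeneic mice, 2, 4 and 5, were above all syngeneic ones, while 3 was below them. On the arrays of mice 2, 4 and 5 the Gapdh 3′ to 5′ ratio was 1.42, 1.38 and 1.46, against 1.55 and 1.59 for allogeneic 1 and 3. The like ratio for actin was 1.48, 1.43 and 1.47, against 1.63 and 1.74. In Rps6, and in the Rpl27a probe set 1419799_at described below, allogeneic 1 and 3 were also lower than 2, 4 and 5. Whether these ratios and the values of Rpl14, Rps27, Rps6 and Rpl27a are linked was not tested. The Rps27 difference was 0.39 (limma SE 0.25, adjusted p 0.462), and 0.71 (limma adjusted p 0.0488) without allogeneic mice 1, 3 and 4. Without allogeneic 4 alone it was 0.25, and without allogeneic 3 alone 0.59.

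The remaining members below 13 included Rps25, Rpl37 and Rps16. Rps25, needed by some viral and cellular messengers for internal initiation, was at 12.15, 11.56, 12.04, 11.88 and 11.87 in syngeneic mice. In allogeneic mice it was at 12.21, 12.06, 11.54, 12.26 and 12.20, with allogeneic 3 the lowest of all 10 mice and the other 4 mixed with or above the syngeneic values. The difference was 0.15 (limma SE 0.17, adjusted p 0.689), 0.07 without syngeneic 2 and 0.28 without allogeneic 3. Rpl37, a zinc-binding large-subunit protein, differed by 0.12 (limma SE 0.17, adjusted p 0.776). Without allogeneic 2 its difference was -0.01, and without allogeneic mice 1, 3 and 4 it was 0.41. The single Rps16 probe set exceeded background on 0 of 10 arrays, with measured means of 0.93 and 1.57, so it gives no level for this gene and no fold.

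Many members had more than 1 probe set, 94 in all, and only 20 members had a single one. Tested one by one in a fit over all 45037 non-control probe sets, 0 of the 94 passed, where 0.411% of all probe sets did. Of the 94, 66 were bright, and their differences ran from -0.047 to 0.16. At an unadjusted limma p under 0.05 there were 0 of them, against 1.70% of 529 other bright probe sets. A further 3 of the 94 were above background on no array. The 25 between these classes held 9 with an unadjusted p under 0.05 (36%), 4 higher and 5 lower in the allogeneic group, against 19.5% of all 34208 probe sets in that range. Their differences ran from -1.08 to 0.86, and the smallest adjusted p was 0.128. Several of these probe sets read the same gene, so the counts are not independent.

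**Figure D3:**
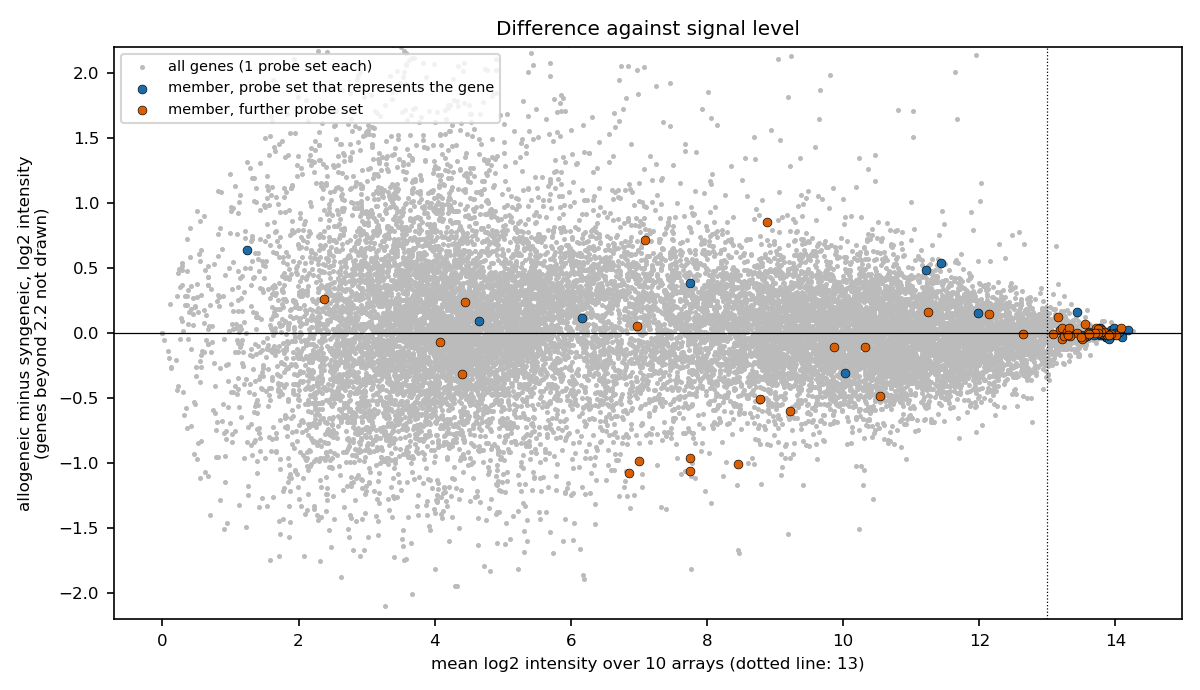
Difference between groups (allogeneic minus syngeneic, log2 intensity) against mean log2 intensity for all genes in grey, with the probe sets of ribosomal protein genes coloured (blue, representing; orange, further ones) and a dotted line at 13. Ribosomal protein probe sets right of the line lie between -0.047 and 0.16, and those left of it spread from -1.08 to 0.86.

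Of these 9 probe sets, 2 represent Rps6 and Rpl14 and were described above; the others belong to Rpsa, Rpl27a, Rps10, Rps9 and Rps18. Rpsa, Rpl27a, Rps9 and Rps18 are described because of these values, which had been seen first. Rpsa encodes a small-subunit protein that is also known as the laminin receptor. Its probe set 1416196_at was at 7.88, 8.81, 8.47, 8.62 and 8.51 in syngeneic and 8.84, 9.49, 9.35, 9.83 and 9.07 in allogeneic mice. All 5 allogeneic values exceeded all 5 syngeneic ones, if by little for allogeneic 1. The difference was 0.86 (limma SE 0.23, adjusted p 0.128). The bright probe set of the same gene differed by 0.0085.

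Rpl27a encodes a large-subunit protein, and its probe set 1419799_at was at 6.82, 6.42, 6.76, 6.91 and 6.72 in syngeneic and 6.98, 7.83, 7.14, 7.55 and 7.73 in allogeneic mice. Here too the groups did not overlap, and allogeneic 1 and 3 were the nearest to the syngeneic values. Groups without overlap were found for 4.83% of all genes, and the share over all probe sets was not counted. The difference was 0.72 (limma SE 0.19, adjusted p 0.128), against 0.01 for the bright probe set. Without allogeneic 1, the Rpsa probe set differed by 0.98 (limma adjusted p 0.0450) and the Rpl27a probe set by 0.84 (limma adjusted p 0.0340). Neither passed in any other fit that left out 1 mouse. Over all genes, leaving out allogeneic 1 gave the most calls of any single mouse.

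In the opposite direction, 3 probe sets of Rps18, a protein of the small subunit's head, had lower allogeneic means. The probe set 1421838_at was at 7.78, 7.23, 7.38, 7.10 and 7.47 in syngeneic and 7.15, 6.33, 5.82, 5.52 and 6.76 in allogeneic mice. Allogeneic 1 lay inside the syngeneic range and the other 4 below it. Its difference was -1.08 (limma SE 0.30, adjusted p 0.138), and -1.29 without allogeneic 1 (limma adjusted p 0.0321). It passed in no other fit that left out 1 mouse. The probe sets 1421837_at and 1450390_x_at differed by -0.96 and -0.98 (limma adjusted p 0.246 and 0.202). Without allogeneic 3 these were -0.61 and -0.75. The 3 bright probe sets of Rps18 differed by -0.01, 0.03 and -0.01.

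Rps10, which is ubiquitinated on stalled ribosomes, had the dim probe set 1436384_at at 8.49, 8.69, 8.39, 7.22 and 8.60 in syngeneic mice. In allogeneic mice it was at 7.08, 7.94, 7.39, 6.72 and 6.92. Syngeneic 4 lay among the allogeneic values, and the other 4 syngeneic mice lay above all of them. The difference was -1.06 (limma SE 0.32, adjusted p 0.158), while the 5 bright probe sets of Rps10 lay between -0.02 and 0.04. Rps9, a protein that guards decoding accuracy, had the probe set 1426958_at at 9.67, 8.96, 8.96, 7.95 and 9.24 in syngeneic and 7.58, 8.71, 7.24, 8.06 and 8.17 in allogeneic mice. The groups overlapped through syngeneic 4. The difference was -1.01 (limma SE 0.35, adjusted p 0.198), and the 2 bright Rps9 probe sets differed by -0.0062 and 0.07. Which transcript or stretch each probe set reads was not examined, so a dim and a bright probe set of a gene are not known to read the same RNA.

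**Figure D4:**
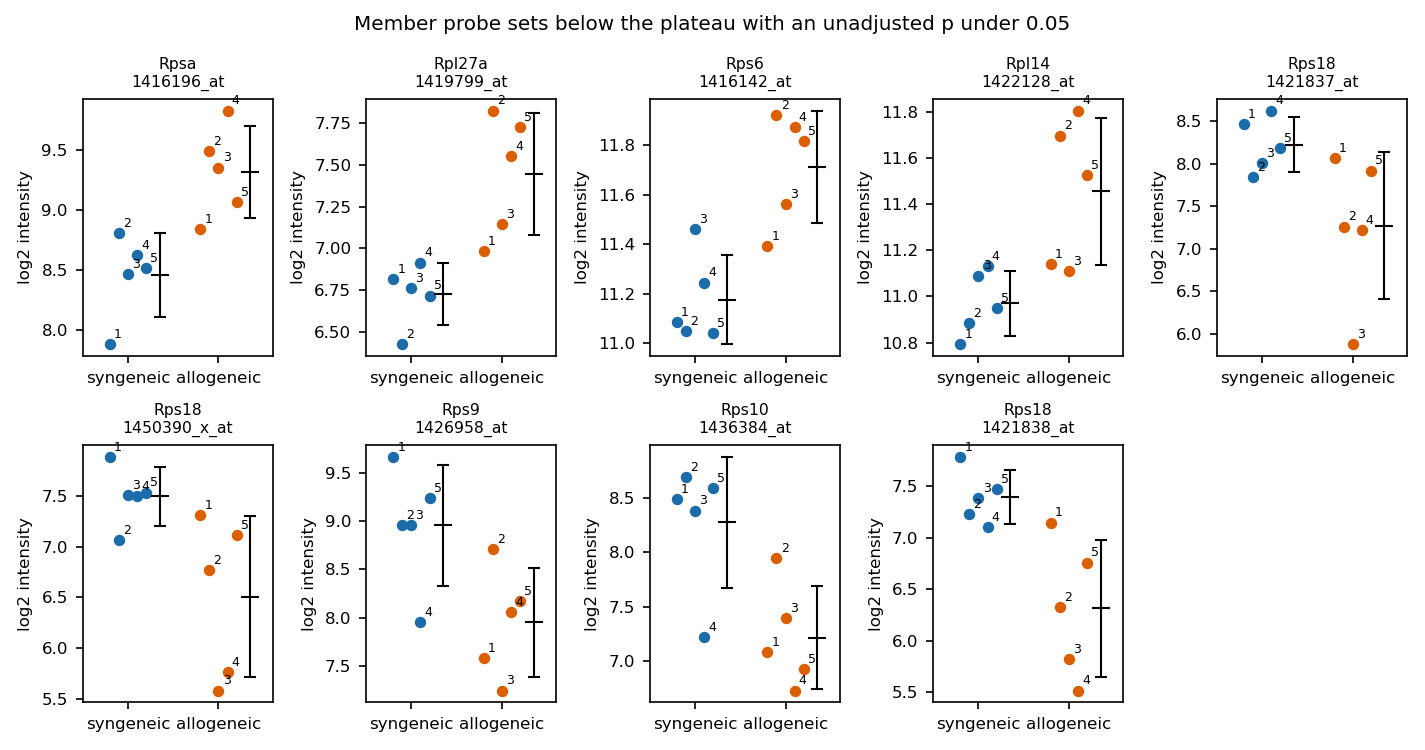
Log2 intensity of the 9 ribosomal protein probe sets below the bright class with an unadjusted limma p under 0.05, 1 panel each, with points for single mice (number beside the point) and bars for mean and SD of 5. In the Rpsa and Rpl27a panels the groups do not overlap, as is so for 4.83% of all genes. In the Rps18, Rps9 and Rps10 panels the allogeneic mean is lower by 0.96 to 1.08.

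**Figure D5:**
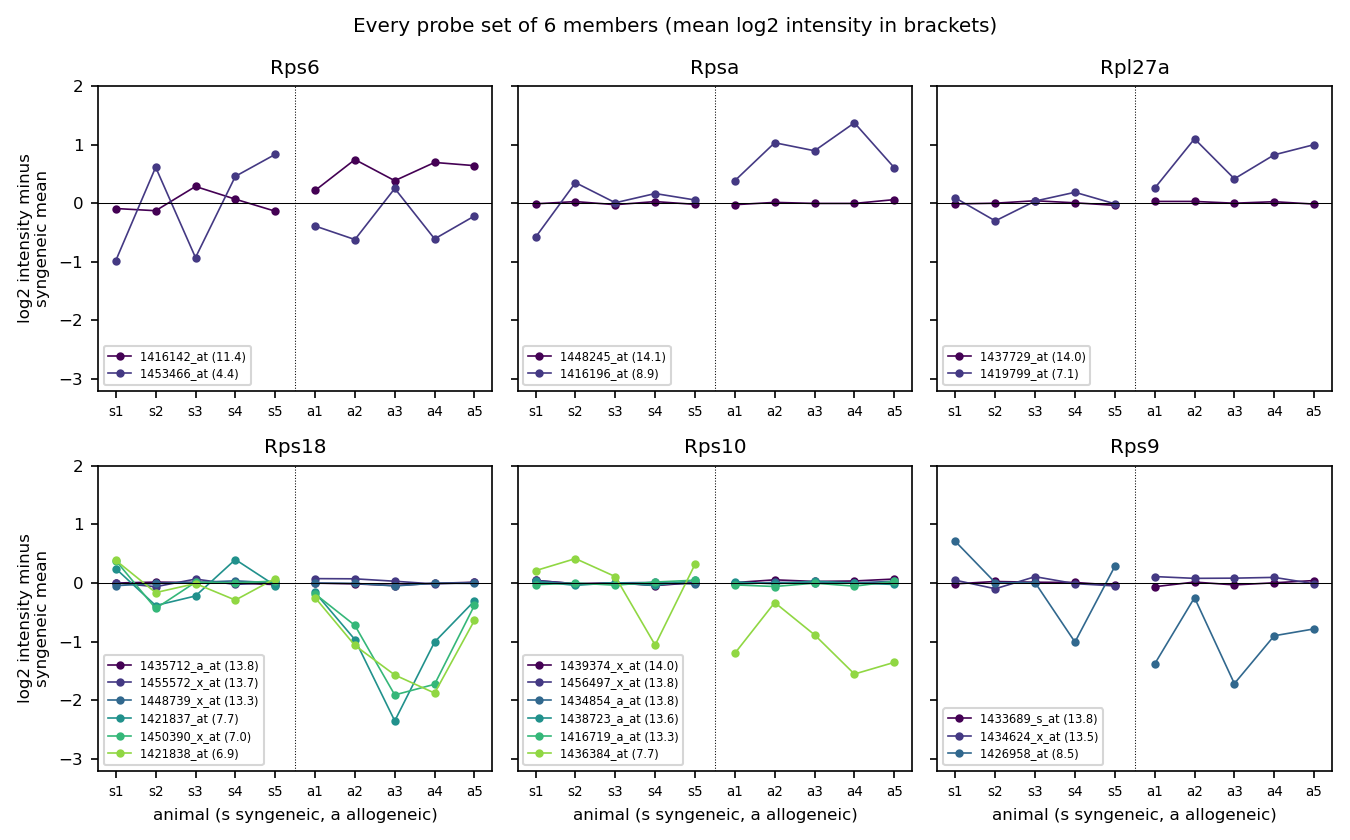
Each probe set of 6 ribosomal protein genes as log2 intensity minus its syngeneic mean, for mice s1 to s5 (syngeneic) and a1 to a5 (allogeneic), with the mean log2 intensity of the probe set in brackets. The bright probe sets stay near 0 in all mice, while the dimmer ones of Rpsa and Rpl27a lie above 0 and those of Rps18, Rps10 and Rps9 mostly below it in allogeneic mice.

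The 110 probe sets with several symbols gave a like picture. Of them 82 were bright, with differences of -0.10 to 0.058. At an unadjusted limma p under 0.05 there were 0 of these, against 1.70% of 529 other bright probe sets. A further 27 of the 110 lay between background and 13. Among these 27, 6 (22.2%) had an unadjusted limma p under 0.05, 4 higher and 2 lower, against 19.5% of all probe sets in that range. None of the 110 passed after adjustment, and in total 7 (6.36%) had an unadjusted limma p under 0.05, against 16.9% of all probe sets.

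Markers of other cells that a GFP gate could let through were set beside these values. Macrophage and monocyte markers were measured for 10 of 11 listed genes, of which 0 passed limma's test, 4 were above background on every array and Cd14 and Itgam on none. Their summed intensity was 3782 to 5659 in syngeneic and 5527 to 9241 in allogeneic mice, highest in allogeneic 1. Mpeg1, the brightest of them, had means of 11.95 and 12.63, and over the list 5 differences were positive and 5 negative. Natural killer cell markers summed to 1006 to 1493 and 1225 to 2046, with 6 of 7 measured, 0 passing and Ncr1 and Gzmb above background on no array. Gzma, the brightest of these, had means of 8.86 and 9.92, and over the list 3 differences were positive and 3 negative. T cell markers summed to 164 to 198 and 162 to 220, with 7 of 9 measured, 0 passing and Cd8b1 and Cd28 above background on no array. Of the granulocyte (8 of 8 measured), erythroid (5 of 8), stromal and endothelial (9 of 9), dendritic (6 of 6) and plasma cell (5 of 5) markers, 0 passed limma's test. Stromal and endothelial markers summed to 570 to 754 in syngeneic and 749.5 to 992 in allogeneic mice, and plasma cell markers to 8268 to 12611 and 6726 to 9170. The brightest gene weighs most in each sum, Pecam1 (means 8.75 and 9.16) and Xbp1 (12.93 and 12.63), so the sums do not measure the number of such cells. The part of such cells in the ribosomal protein values was not tested.

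Ribosomal genes outside the naming pattern and paralogs of the members were measured as well. Fau, whose product includes the small-subunit protein eS30, differed by 0.02. Of 8 listed paralogs 6 were measured and 0 passed. Rpl22l1 and Rps27l, paralogs that lie in the bright class, differed by 0.09 and 0.03. The muscle paralog Rpl3l differed by -1.37 (limma SE 0.68, adjusted p 0.337), with means of 5.61 and 4.23, and was above background on 4 syngeneic and 2 allogeneic arrays, so its lower mean is not a measured level. Other messengers with TOP tracts, mainly elongation and initiation factors, were measured for 17 of 20 listed genes. In this list 0 passed, 4 were positive and 13 negative, and the median was -0.02 with a range from -0.15 for Pabpc1, the poly(A)-binding protein, to 0.08.

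The regulators of TOP messengers included genes with larger differences. In the mTOR list 13 of 14 were measured, 0 passed the limma test, 2 had an unadjusted limma p under 0.05, and 2 were positive and 11 negative. Eif4ebp1, the translation repressor that mTOR inactivates, had means of 11.65 and 12.08 and differed by 0.43 (limma SE 0.14, adjusted p 0.169). Larp1, which binds the TOP tract, had means of 12.56 and 12.19 and differed by -0.37 (limma SE 0.13, adjusted p 0.192). Mtor itself differed by -0.03 and Rptor, its partner in the growth-sensing complex, by 0.01. Ribosomal protein chaperones and importers were measured for 12 of 13 genes, 0 passed, and the differences ran from -0.33 for Ipo7, an importin, to 0.15 for Bccip.

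Genes that respond to ribosomal stress or to stalled ribosomes were measured as lists too. In the p53 list 6 of 7 were measured, 0 passed and all 6 differences were negative, with a median of -0.39. Mdm2, the p53 ubiquitin ligase that Rpl11 binds, had means of 11.79 and 11.29 with no overlap between groups, and differed by -0.50 (limma SE 0.12, adjusted p 0.107). Its relative Mdm4 differed by -0.76 (limma SE 0.20, adjusted p 0.129), and the p53 target Cdkn1a by -0.05. In the stalling and ufmylation list 14 of 15 were measured, 0 passed and 7 lay on each side of 0. Ltn1, the ligase that marks stalled chains, differed by -0.36 (limma SE 0.14, adjusted p 0.241) and Ddrgk1, which places the ufmylation machinery at the endoplasmic reticulum, by 0.35 (limma SE 0.15, adjusted p 0.272). In the GAIT list 5 of 6 were measured and 0 passed. Syncrip, an RNA-binding GAIT component, differed by -0.28 (limma SE 0.10, adjusted p 0.218) with no overlap between groups.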

How the data were processed

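RNA of GFP-sorted leukaemia was labelled as biotinylated cDNA with NuGEN kits, per the labels' protocols, and read on 1 array per mouse. The deposited table gives 1 linear intensity per probe set and array, and how the authors summarised and scaled the probes is not stated in any source used here. Of 45101 probe sets, 34945 carried 1 symbol, 932 several and 9160 none, and 64 were controls. For 34754 of those with 1 symbol the gene identifier was found in RefSeq. The symbol given there was used for them, whether or not it differed. The deposited intensity values were put on the log2 scale here and quantile normalized, with no filter on low values. Groups were compared with limma 3.58.1 (lmFit and eBayes, default settings, R 4.3.3), and p-values were adjusted by Benjamini and Hochberg over all genes or all probe sets; all adjusted p-values are limma's. The moderation had 1.96 prior degrees of freedom. The test over genes was first tried on simulated data, and the test over all probe sets was not.

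Members, role groups and gene lists were chosen with earlier results of these data known, and the background limit and the limit of 13 after the values had been seen. Genes eligible to be named were called members, the 8 members with the highest and the 8 with the lowest differences, the 6 with the smallest p, the 4 with the largest within-group SD, the fixed role groups (39 genes, 26 measured) and up to 4 genes per other list with the smallest p. This gave 33 members. Rpsa, Rpl27a, Rps9, Rps18, the marker genes, and Fau, Rpl22l1, Rps27l, Mtor, Rptor, Bccip and Cdkn1a where outside that rule were named after their values were seen.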

Additional observations from a re-analysis of the deposited data

Results flagged for a closer look

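Single mice stood apart from the other 4 of their group in 8 of 102 groups of values examined (both groups of 33 members and of the further dimmer probe sets), by Dixon's test at its critical value for 5 values, 0.71; chance alone gives about 1 in 20 groups. In the bright class, Rpl13a in allogeneic 5 was at 14.0585 with the others at 13.9872 to 13.9925. Rps14 in allogeneic 1 was at 13.7561 with the others at 13.8039 to 13.8231. For Rpl41, syngeneic 4 was at 13.4284 with the others at 13.3285 to 13.3544, and allogeneic 4 at 13.9814 with the others at 13.3078 to 13.4923. Below that class, Rps25 in allogeneic 3 was at 11.535 with the others at 12.0566 to 12.2629. Syngeneic 1 was the highest for the Rpl41 probe set 1433530_at, at 11.1746 with the others at 10.5997 to 10.7479, and for the Rpl35 probe set 1454833_at, at 9.9202 with the others at 8.68173 to 8.96879. The Rps10 probe set 1436384_at in syngeneic 4 was at 7.21756 with the others at 8.38561 to 8.6929.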

How the results depend on the processing

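Over all genes 106 passed, and 237 and 269 passed when the lower 25% or 50% by level were left out, 252 with log2(value + 16), 280 with limma's trend, 720 with array weights, 658 without allogeneic 1, 3 and 4, 1462 with the trend and without allogeneic 1 (chosen after seeing the data), and 55 (without syngeneic 2) to 636 (without allogeneic 1) leaving out each mouse. The remaining settings, other than the block below, gave 71 to 127. Among members 0 passed, against 1 with the trend (Rps6, limma adjusted p 0.0460), 2 with array weights (Rps6 at 0.0371 and Rpl14 at 0.0395), 1 without allogeneic 1, 3 and 4 (Rps27), 2 with the trend and without allogeneic 1 (Rps6 and Rpl14), and 0 to 1 leaving out each mouse. The members' median of -0.0019 was -0.049 on the deposited scale and -0.083 after median centring, where the median of all genes was 0.055 and 0.021. It was -0.0098 without probe sets ending in _x_at or _s_at (37 members), 0.0055 with array weights, 0.0098 without allogeneic 1, 3 and 4, 0.0043 with the trend and without allogeneic 1, and -0.0047 to 0.0060 leaving out each mouse. The Rps6 difference was positive in 23 of 23 alternatives, from 0.11 to 0.69, and passed in 4. That of Rpl14 was positive in 23 of 23, from 0.40 to 0.64, and passed in 2. The cause of these shifts was not tested, beyond the fewer genes or mice that an alternative leaves.

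With the mouse number as a replicate block, 14 genes and 0 members passed, the members' median was -0.0019 and Rps6 had a limma adjusted p of 0.242. Deviations of same-numbered mice from their group means correlated at -0.082 to 0.0733 and were most alike in 2 of 5 cases, so the numbers were not treated as pairs. Without allogeneic 1, 4 of the 25 dimmer member probe sets passed, those of Rps6, Rpl27a, Rpsa and Rps18, and 0 did in each of the other 9 fits that left out 1 mouse. The share of all probe sets passing in that fit was not counted, so the 4 cannot be set against it. Over all genes, leaving out allogeneic 1 also gave the most calls of any single mouse, as stated above.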
